A study of Mus musculus with 30 samples.

Results

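The cholesterol synthesis and lipid handling genes of mouse microglia were followed from E17 to P60, after maternal immune activation (MIA), and after microglial depletion and repopulation. The set was a list of 42 gene symbols, and a gene entered when the deposited expression table held a row with its symbol. Of the 42 genes, 34 had a row, and because Pmvk had 2 transcripts the set held 35 of the 14225 transcripts of the table. Mvk, Mvd, Srebf1, Nr1h2, Nr1h3, Apoc1, Pparg and Fabp5 were not analysed here.

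The 30 libraries, 3 per group, were made from RNA of CD11B bead-isolated microglia of the whole brain of C57BL/6J mice. Dams received saline (Saline) or the viral mimetic poly(I:C) (MIA) in mid-gestation, and their offspring were sampled at E17, P7, P20 and P60. The P60 offspring ate control chow (CTRL), or chow with the CSF1R inhibitor PLX5622, which removes microglia, followed by control chow while microglia returned (MG-REP). Each age thus had a Saline and an MIA group, and at P60 each of these was split by chow, which makes 10 groups with names such as Saline + CTRL. A library held 1 litter at E17, 3 pooled brains at P7 and 1 brain at P20 and P60, and both sexes were used. CD11B beads also take other myeloid cells, and PLX5622 acts on every cell that needs CSF1R. For P7, P20 and P60 the labels do not say whether replicates came from separate dams. The p-values set each difference against the spread between these libraries, which need not be the spread between dams. Values are TPM, read shares corrected for transcript length, so levels of different genes can be compared.

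The 7 microglial markers were all present and summed to between 16294 and 51118 TPM in every library. Markers of other cells were also present: the oligodendrocyte list (6 of 7 markers in the table) summed to between 58.1 and 5049 TPM, the astrocyte list (6 of 6) to between 147 and 2745 TPM, and the neuron list (5 of 6) to between 46.6 and 1329 TPM. Estimated from the steps between low values, the transcripts of known length held between 8020000 and 12820000 reads per library. On that estimate 1 read on a transcript of 1 kb was worth 0.211 to 0.352 TPM. The search covered a preset range of step sizes, which bounded the result, so this is not the size of the library. The authors state a higher minimum number of reads per sample. In whole-population RNA, fewer cells of a type and less RNA per cell cannot be told apart.

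Cholesterol is built from acetyl-CoA through mevalonate, squalene and lanosterol by a chain of enzymes, most of them in the endoplasmic reticulum. When sterol is low, SCAP carries the transcription factor SREBP2 (Srebf2) to the Golgi, where it is cut and freed to switch on the chain, and INSIG1 holds it back when sterol is high. Oxysterols made by CH25H and CYP27A1 activate liver X receptors, which raise the exporters ABCA1 and ABCG1 and the ubiquitin ligase MYLIP (IDOL), which sends the LDL receptor for degradation. Cholesterol that is kept is esterified by SOAT1 and stored in lipid droplets coated by PLIN2, and microglia that have taken up myelin are known to handle much sterol in this way.

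The 200 bases before the annotated start of 5 genes are shown to let their control regions be compared. They are an early enzyme of the chain, the brake on SREBP, and 3 of the 4 genes that differed after repopulation. Sequences are from RefSeq on GRCm38.p6 (the mm10 assembly, which the files use), written 5′ to 3′ on the gene's strand. Capitals mark 4 searched motifs on either strand: the sterol regulatory element core TCACNCCAC, the CCAAT box (CCAAT), the E-box (CACGTG) and the GC box (GGGCGG). No marked matches overlap.
Hmgcs1, chr13:119690151-119690350, plus strand: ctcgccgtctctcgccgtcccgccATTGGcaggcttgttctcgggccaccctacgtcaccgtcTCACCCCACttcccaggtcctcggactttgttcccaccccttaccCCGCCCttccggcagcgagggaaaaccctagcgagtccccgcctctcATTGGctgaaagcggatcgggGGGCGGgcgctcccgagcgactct
Insig1, chr5:28071212-28071411, plus strand: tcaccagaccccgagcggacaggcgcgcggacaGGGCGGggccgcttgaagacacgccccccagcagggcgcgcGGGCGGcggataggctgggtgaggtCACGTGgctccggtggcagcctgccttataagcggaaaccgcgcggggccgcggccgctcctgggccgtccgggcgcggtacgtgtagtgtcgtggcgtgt
Mylip, chr13:45389542-45389741, plus strand: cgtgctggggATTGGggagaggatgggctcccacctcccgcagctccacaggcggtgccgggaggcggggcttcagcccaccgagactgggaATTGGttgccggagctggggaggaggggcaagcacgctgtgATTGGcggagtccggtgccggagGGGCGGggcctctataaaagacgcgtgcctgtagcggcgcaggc
Soat1, chr1:156474329-156474528, minus strand: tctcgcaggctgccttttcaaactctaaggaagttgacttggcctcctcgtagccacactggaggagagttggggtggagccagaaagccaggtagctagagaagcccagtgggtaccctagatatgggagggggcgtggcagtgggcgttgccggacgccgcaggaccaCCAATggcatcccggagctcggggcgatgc
Ch25h, chr19:34475149-34475348, minus strand: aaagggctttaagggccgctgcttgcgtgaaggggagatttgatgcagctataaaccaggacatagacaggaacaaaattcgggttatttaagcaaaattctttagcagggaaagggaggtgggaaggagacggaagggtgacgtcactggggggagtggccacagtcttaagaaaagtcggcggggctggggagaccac
Hmgcs1 held the sterol regulatory element core from 137 to 129 bases before its start, a match found in 0.858% of all 32851 promoters, together with CCAAT boxes at 176 and 45 bases. Insig1 held an E-box at 101 bases, which 5.26% of promoters hold, and no CCAAT box in this window. Mylip held 3 CCAAT boxes, Soat1 held 1, and Ch25h held none of the 4 motifs. Of 26 set genes with a promoter entry, 20 held a CCAAT box, against 29.3% of all promoters, and all 12 synthesis genes with an entry were among them. The sterol regulatory element core was in 1 of the 26 in this window, Hmgcs1, and so in 1 of the 12 synthesis genes. GC boxes were in 17 of the 26, against 31.0% of all promoters. The set was counted by gene, while the percentages count single promoter entries. A gene with several entries has more chances to match, so the set counts and these percentages are not directly comparable. A match is a description of letters and not a site of binding.

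The highest median levels of the set were those of Scd2, Mylip, Fads1 and Abca1, and the lowest included single transcripts of mevalonate enzymes. Scd2, a stearoyl-CoA desaturase, had a median of 956 TPM over the 30 libraries, Mylip 359 TPM and Abca1 260 TPM, against 56.2 TPM for Sqle and 8.52 TPM for Idi1. Hmgcs1 (0.44 to 2.93 TPM), Fdps (0 to 3.15 TPM), Scap (0.68 to 2.07 TPM) and the second Pmvk transcript (0.96 to 4.69 TPM) were near the floor. Their rows hold 1 of several RefSeq transcripts of the gene (1 of 2 for Hmgcs1, Fdps and Scap), and an estimated median of 13.6 reads stood behind Hmgcs1 and 4.7 behind Fdps. The rows of Dhcr7 (1 of 7), Fdft1 (1 of 2) and Stard4 (1 of 2), at higher levels, also hold 1 of several transcripts. These rows therefore limit what can be said of the whole gene.

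**Figure D1:**
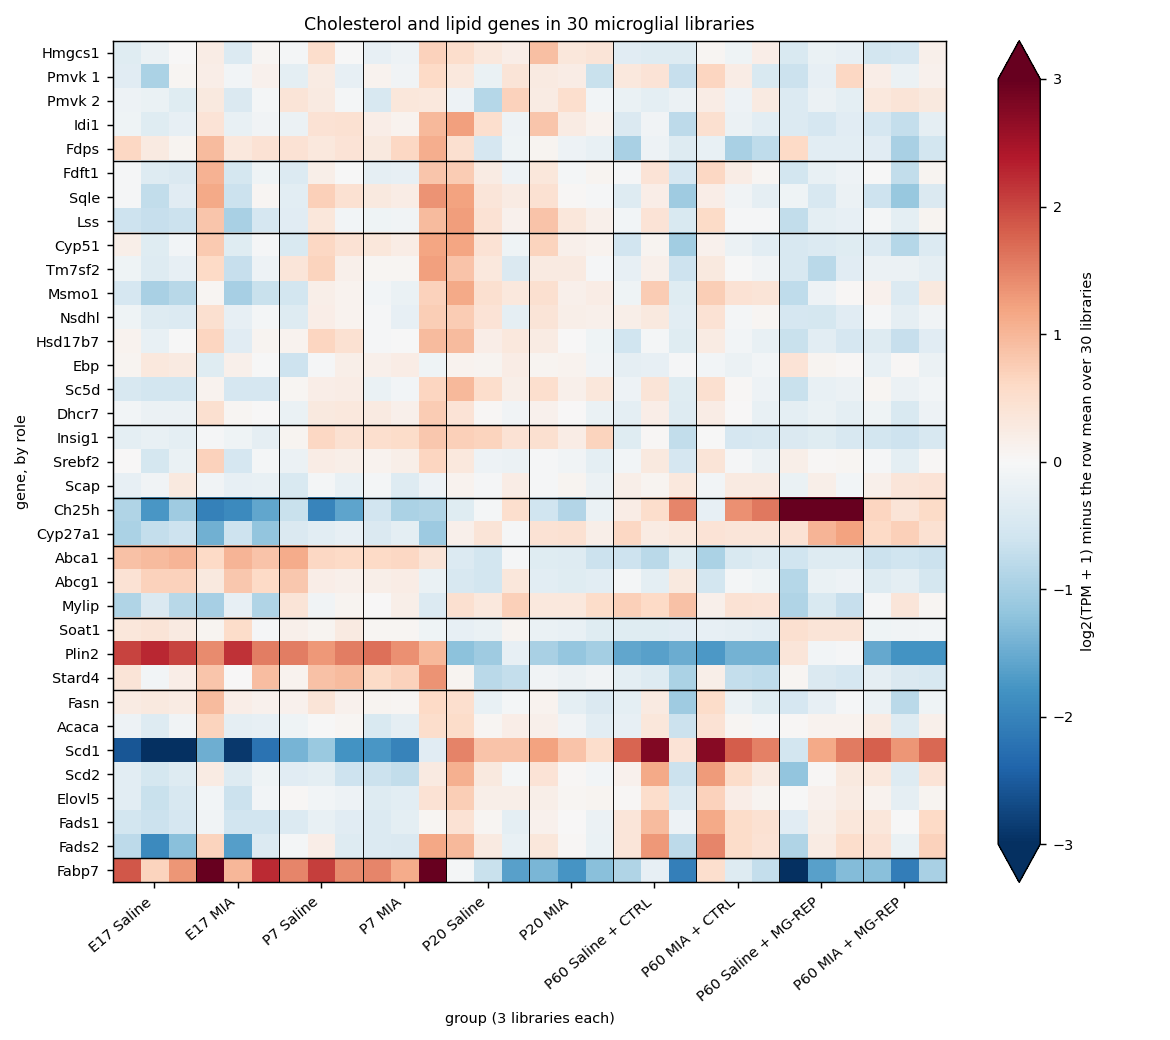
Level of each of the 35 transcripts in each of the 30 libraries, as log2(TPM + 1) minus the mean of the row, with genes ordered by role and groups separated by lines. Plin2 and Abca1 are high at E17 and P7, Scd1 is high from P20 on, and Ch25h is highest in the 3 Saline + MG-REP libraries.

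Plin2, Abca1 and Stard4, genes of storage, export and sterol transfer, were lower at P20 than at P7 in both maternal treatments, while the calls for Abcg1 and Soat1 were smaller and made in Saline only, a difference between treatments that was not tested. Plin2, the coat protein of lipid droplets, was at 783, 914 and 777 TPM in the E17 Saline libraries, at 553, 468 and 552 TPM at P7, at 80.5, 90.2 and 161 TPM at P20 and at 63.4, 60.4 and 67.3 TPM at P60. No P20 library reached a P7 library. Between P7 and P20, Plin2 fell by 2.30 on the log2(TPM + 1) scale (95% interval -2.73 to -1.87, limma adjusted p = 8.895e-09), and from E17 to P60 it fell by 3.67 (adjusted p = 2.693e-12). In MIA offspring it fell by 2.39 between P7 and P20 (adjusted p = 4.955e-09).

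Abca1, the exporter that loads cholesterol onto lipid-poor apolipoproteins, took the same step. Its values were 729, 522 and 507 TPM at P7 in Saline and 251, 229 and 326 TPM at P20, with no overlap. It fell by 1.12 (95% interval -1.45 to -0.79, adjusted p = 8.828e-06) in Saline and fell by 1.00 (adjusted p = 3.167e-05) in MIA. Abcg1, which exports to lipoprotein particles, was at 180, 118 and 113 TPM at P7 and 73.3, 69.3 and 130 TPM at P20 in Saline. These groups overlapped, and Abcg1 fell by 0.62 (adjusted p = 0.03409). Stard4, a carrier that moves cholesterol between membranes, fell by 1.13 in Saline (adjusted p = 0.004416) and fell by 1.00 in MIA (adjusted p = 0.01044) over this interval. Soat1, which esterifies cholesterol, fell by 0.29 in Saline (adjusted p = 0.04296), from a mean of 94.5 to 77.4 TPM. In MIA the differences were -0.40 for Abcg1 (adjusted p = 0.1681) and -0.25 for Soat1 (adjusted p = 0.07923). With the summed oligodendrocyte, astrocyte and neuron markers as a covariate, the Saline differences were -0.24 for Abcg1 (adjusted p = 0.5179) and -0.07 for Soat1 (adjusted p = 0.7211).

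Among the genes that went up with age were the desaturase Scd1, both oxysterol enzymes and Mylip. Scd1, which makes monounsaturated fatty acids, was at 15.2, 9.49 and 10.97 TPM at E17 in Saline, at 35.9, 44.1 and 26.8 TPM at P7, at 272, 173 and 173 TPM at P20 and at 324, 666 and 127 TPM at P60. Every P20 library was above every P7 library, while the P60 libraries spread on both sides of P20. Scd1 rose by 2.496 between P7 and P20 in Saline (95% interval 1.40 to 3.59, adjusted p = 0.0007792) and by 2.23 in MIA (adjusted p = 0.001998). In a fit with the summed oligodendrocyte, astrocyte and neuron markers as a covariate, the Saline difference was 0.30 (adjusted p = 0.342).

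Ch25h, which makes 25-hydroxycholesterol, was at 7.96, 2.62 and 3.75 TPM at P7 in Saline and at 10.01, 12.6 and 19.0 TPM at P20. It rose by 1.43 (95% interval 0.56 to 2.29, adjusted p = 0.01014), a call lost when 1 library was left out (1.14, adjusted p = 0.06328 at the lowest). By P60 it was at 15.6, 19.3 and 38.3 TPM, higher than at E17 by 1.98 (adjusted p = 0.0004432). Cyp27a1, which makes 27-hydroxycholesterol, rose by 1.16 from E17 to P60 in Saline (46.3 to 105 TPM, adjusted p = 4.969e-05) and by 0.95 from P7 to P20 in MIA (adjusted p = 0.0007292). Mylip was at 175, 244 and 187 TPM at E17 in Saline and at 540, 498 and 612 TPM at P60. The groups stood apart, and Mylip rose by 1.45 (95% interval 1.07 to 1.83, adjusted p = 8.767e-07).

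Fabp7, a fatty acid binding protein known from radial glia and astrocytes, had the largest fall of the set between P7 and P20. It was at 678, 1033 and 656 TPM at P7 in Saline and at 235, 153 and 77.7 TPM at P20. It fell by 2.44 in Saline (95% interval -3.73 to -1.16, adjusted p = 0.003648) and fell by 3.38 in MIA (adjusted p = 0.0001678). Its highest values, 2601 TPM in E17 MIA library 1 and 2231 TPM in P7 MIA library 3, were in the libraries with the highest summed other-cell markers of their groups (1892 and 1991 TPM).

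Insig1, the brake on SREBP processing, moved in the opposite directions early and late. It was at 101, 106 and 99.5 TPM at E17 in Saline, at 129, 191 and 170 TPM at P7, at 204, 196 and 165 TPM at P20 and at 94.7, 126 and 73.4 TPM at P60. It rose by 0.65 from E17 to P7 (95% interval 0.31 to 0.99, adjusted p = 0.02257) and fell by 0.96 from P20 to P60 (95% interval -1.30 to -0.62, adjusted p = 0.001658). In MIA it rose by 0.76 (adjusted p = 0.01177) and fell by 0.79 (adjusted p = 0.01085). In fits on the compared groups alone these adjusted p-values were 0.0539 and 0.1517 in Saline and 0.1805 and 0.05421 in MIA. Xist was at 172 to 193 TPM in all P20 libraries but at 0.14 to 0.29 TPM in 2 of the 3 control-chow libraries of each maternal treatment at P60, so these ages also differed in the share of female libraries. On only the Xist-expressing P60 libraries, a choice made after the data were seen that leaves 1 library per treatment, assumed to vary like the other groups, the P20 to P60 difference of Insig1 was -0.98 in Saline (adjusted p = 0.02371) and -0.48 in MIA (adjusted p = 0.1789).

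Few of the synthesis enzymes were called between ages, and the calls changed when the other-cell markers were a covariate. Of their 16 rows, 0 were called from E17 to P7, from P7 to P20 or from P20 to P60 in Saline, by limma over all transcripts. In these intervals 3.09%, 16.1% and 1.02% of all transcripts were called higher and 1.23%, 20.1% and 2.49% lower. From E17 to P60 in Saline 1 of the 16 was called higher (22.1% of all transcripts) and 2 lower (25.4% of all). In MIA 1 of the 16 was called lower (22.5% of all transcripts) and 0 higher (13.1% of all) from P7 to P20. From E17 to P7 in MIA 0 were called (1.59% of all higher and 0.801% lower), and from P20 to P60 also 0 (1.03% and 1.57%). From P7 to P20 in Saline, 12 of the 16 fitted differences lay above 0, where 6916 of all 14225 transcripts did. With the other-cell marker covariate 9 rows were called lower, where 31.4% of all transcripts were called lower. Among the 9 were Sqle (-1.06, adjusted p = 0.009389) and Fdft1 (-0.96, adjusted p = 0.001495). Only Ebp was called higher in that fit (0.68, adjusted p = 0.003251), beside 8.57% of all transcripts. From P20 to P60 in Saline all 16 fitted differences lay below 0, between -1.02 and -0.12, where 8268 of all 14225 transcripts lay below 0. With the marker covariate 13 of the 16 lay below 0 and 3 above. In that fit 1 of them was called lower, beside 6.03% of all transcripts. Sqle, which makes the epoxide of squalene, was at 134, 74.1 and 67.8 TPM at P20 and 43.6, 66.0 and 27.0 TPM at P60 (log2 difference -1.02, 95% interval -1.82 to -0.22, adjusted p = 0.1605). Idi1, which isomerises isopentenyl diphosphate, was at 23.7, 13.9 and 8.48 TPM and then 6.75, 8.73 and 5.08 TPM (-0.98, adjusted p = 0.07872). The Idi1 groups overlapped by 1 library. Over the same interval the oligodendrocyte markers went from 1878 to 5049 TPM at P20 to 457 to 1918 TPM at P60. From E17 to P60 in Saline, Msmo1, a demethylating oxidase of the late chain, rose by 0.85 (adjusted p = 0.02656) and Ebp, the sterol isomerase, fell by 0.40 (adjusted p = 0.03726). With the marker covariate Msmo1 turned to -0.20 (adjusted p = 0.3337) and Ebp was at -0.07 (adjusted p = 0.7533). Fdps was listed at 2.02, 1.35 and 1.07 TPM at E17 and at 0, 0.75 and 0.50 TPM at P60 (adjusted p = 0.02028).

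Over the 14 comparisons 16 rows were called at least once and 19 in none. Among the synthesis enzymes never called, Cyp51, which removes a methyl group from lanosterol, ranged over the 30 libraries from 32.4 to 156 TPM, Sc5d, a late desaturase, from 45 to 144 TPM, and Dhcr7, which completes cholesterol, from 39.6 to 92.2 TPM. Fdft1, the squalene synthase, ranged from 11.1 to 41 TPM, Lss from 9.05 to 46.1 TPM, the reductase Tm7sf2 from 17.9 to 76.2 TPM and the dehydrogenase Nsdhl from 22.7 to 57 TPM. Every one of these 7 was highest in E17 MIA library 1, P7 MIA library 3 or P20 Saline library 1, the libraries with the most other-cell marker RNA of their groups. Srebf2 ranged from 80.1 to 189 TPM. Of the fatty acid enzymes, the synthase Fasn ranged from 44.9 to 184 TPM, the carboxylase Acaca from 4.41 to 12.4 TPM, the elongase Elovl5 from 97.1 to 259 TPM and Scd2 from 421 to 2336 TPM.

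The counts of called rows are set beside the share of all transcripts called in the same direction. From E17 to P7 in Saline 2 of 35 rows were higher (3.09% of all transcripts) and 0 lower (1.23% of all), with 10 rows at an unadjusted p under 0.05. The 2 were Mylip and Insig1, and 0 rows were called without E17 Saline library 1 or 3 and 1 row without E17 Saline library 2 or P7 Saline library 1 or 2. From P7 to P20 in Saline 2 were higher (16.1%) and 6 lower (20.1%). From P20 to P60 in Saline 0 were higher (1.02%) and 1 lower (2.49%), with 9 rows at an unadjusted p under 0.05. From E17 to P60 in Saline 7 were higher (22.1%) and 8 lower (25.4%). Across the latter span Fads1 and Fads2, the desaturases of polyunsaturated fatty acids, rose by 0.95 (adjusted p = 0.002051) and 1.61 (adjusted p = 0.01741), and with the other-cell marker covariate the differences were 0.16 for Fads1 (adjusted p = 0.3636) and -0.37 for Fads2 (adjusted p = 0.07278).

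In MIA offspring 1 row was higher (1.59%) and 0 lower (0.801%) from E17 to P7, with 6 at an unadjusted p under 0.05. From P7 to P20, 3 were higher (13.1%) and 5 lower (22.5%). From P20 to P60, 0 were higher (1.03%) and 1 lower (1.57%), with 6 at an unadjusted p under 0.05. Under median-ratio scaling of the libraries, the share of higher calls among all called transcripts went from 29.1% to 44.8% for P20 to P60 in Saline, from 36.7% to 49.2% for P7 to P20 in MIA and from 39.5% to 51.6% for P20 to P60 in MIA. The members' calls under that scaling were 0 higher and 1 lower, 2 and 4, and 1 and 1. Of the 42 rows of other sterol and lipid genes, 7 were higher and 9 lower from P7 to P20 in Saline. These were 16.7% and 21.4% of the rows, near the 16.1% and 20.1% of all transcripts.

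**Figure D2:**
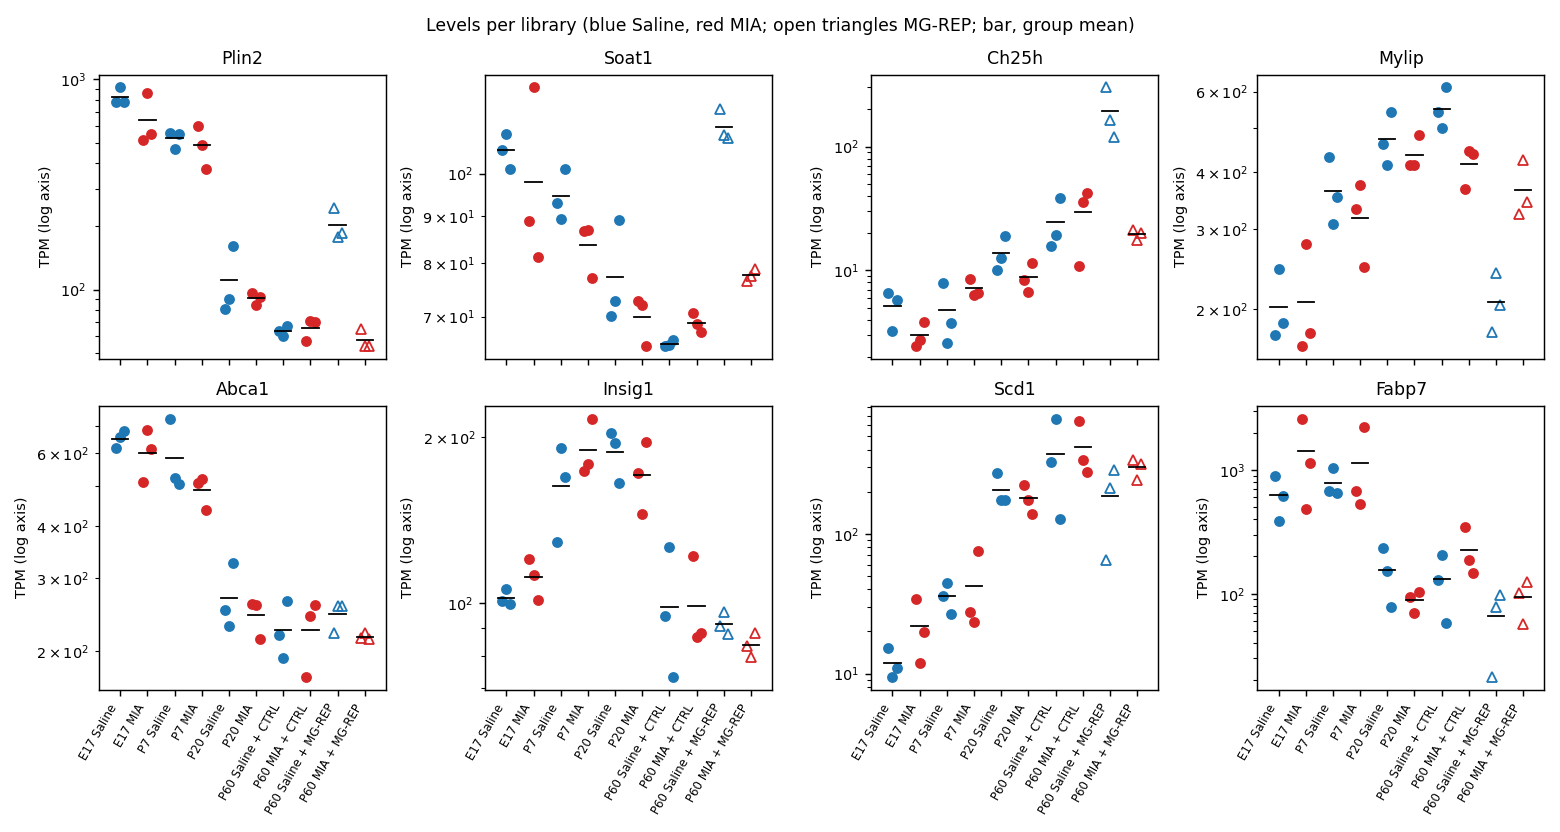
TPM on a log axis of 8 genes in each library, by group, in blue for Saline and red for MIA, with open triangles for MG-REP and a bar at each group mean. Plin2 and Abca1 step down between P7 and P20, and Plin2, Soat1 and Ch25h are higher and Mylip lower in Saline + MG-REP than in Saline + CTRL, while the MIA + MG-REP libraries sit near MIA + CTRL.

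Repopulation after PLX5622 was compared with control chow at P60 within each maternal treatment. In Saline offspring 3 of 35 rows were higher (11.9% of all transcripts) and 1 lower (14.9% of all). The 4 were Ch25h, Plin2 and Soat1, which rose, and Mylip, which fell. Under median-ratio scaling the same numbers of rows were called, while the share of higher calls among all called transcripts went from 44.3% to 57.5%.

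Ch25h was at 300 TPM, 163 TPM and 119 TPM in Saline + MG-REP against 15.6, 19.3 and 38.3 TPM in Saline + CTRL. The lowest repopulated library was above the highest control by a wide margin, and above every other library of the series. The gene rose by 2.93 on the log2 scale (95% interval 2.07 to 3.80, adjusted p = 8.87e-06). In MIA + MG-REP it was at 21.2, 17.6 and 20.1 TPM against 10.9, 36.0 and 41.8 TPM in MIA + CTRL (-0.37, 95% interval -1.24 to 0.49, adjusted p = 0.9778). The effect in MIA differed from that in Saline by -3.31 (95% interval -4.53 to -2.08, adjusted p = 0.0005323).

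Plin2 was at 245, 178 and 185 TPM in Saline + MG-REP against 63.4, 60.4 and 67.3 TPM in Saline + CTRL, with no overlap. It rose by 1.64 (95% interval 1.21 to 2.07, adjusted p = 1.578e-06), to a level that was still below every E17 and P7 library. In MIA + MG-REP it was at 64.8, 54.1 and 54.1 TPM against 57.1, 70.8 and 69.9 TPM (-0.19, 95% interval -0.62 to 0.24, adjusted p = 0.9778). The effects differed by -1.83 (95% interval -2.44 to -1.22, adjusted p = 0.0001601).

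Soat1 was at 117, 110 and 109 TPM in Saline + MG-REP, against 65.1, 65.3 and 66.1 TPM in Saline + CTRL. It rose by 0.77 (95% interval 0.54 to 1.00, adjusted p = 9.668e-06). In MIA + MG-REP it was at 76.6, 77.4 and 78.9 TPM against 70.7, 68.8 and 67.5 TPM, groups that did not overlap and differed by 0.17 (95% interval -0.06 to 0.40, adjusted p = 0.9683). The effects differed by -0.60 (adjusted p = 0.01373), and by -0.67 (adjusted p = 0.0659) under median-ratio scaling.

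Mylip went the other way. It was at 178, 240 and 204 TPM in Saline + MG-REP against 540, 498 and 612 TPM in Saline + CTRL, and its repopulated libraries lay within the range of the E17 Saline libraries. It fell by 1.41 (95% interval -1.79 to -1.03, adjusted p = 2.762e-06). In MIA it was at 324, 425 and 344 TPM against 366, 444 and 438 TPM, which overlap (-0.20, 95% interval -0.58 to 0.19, adjusted p = 0.9778). The effects differed by 1.21 (95% interval 0.67 to 1.76, adjusted p = 0.003247).

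The exporters, which are liver X receptor targets like Mylip, were not called. Abca1 was at 221, 257 and 257 TPM in Saline + MG-REP against 219, 192 and 263 TPM (0.13 on the log2 scale), and the difference for Abcg1 was -0.38. Of the 16 synthesis rows 0 were called after repopulation in Saline (11.9% of all transcripts were called higher and 14.9% lower). Their fitted differences lay between -0.50 and 0.49. Of the 35 rows of the set, 6 had an unadjusted p under 0.05. Of 42 rows of other sterol and lipid genes, 10 rose (23.8%, against 11.9% of all transcripts) and 5 fell (11.9%, against 14.9% of all). Among them Tspo, an outer mitochondrial membrane protein that binds cholesterol, went from 133 to 401 TPM (1.59, adjusted p = 1.447e-06), and Npc2, which carries cholesterol out of lysosomes, from 529 to 930 TPM (0.81, adjusted p = 8.839e-05). Nceh1, which hydrolyses cholesteryl esters, went from 22.6 to 46.9 TPM (1.02, adjusted p = 0.001074), and Lpcat3, a phospholipid remodelling enzyme and liver X receptor target, from 198 to 104 TPM (-0.91, adjusted p = 1.243e-07). These 4 were chosen after their values were seen.

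In MIA offspring 0 rows were higher (0.387% of all transcripts) and 0 lower (0.169% of all) after repopulation by limma, with 0 of 35 at an unadjusted p under 0.05. The smallest p-values were those of Fabp7 (-1.23, 95% interval -2.51 to 0.06, adjusted p = 0.8393) and Fads1 (-0.41, 95% interval -0.91 to 0.08, adjusted p = 0.9208). For 24 of the 35 rows the 95% interval lay within 1 log2 unit of 0. In the test of the difference between the 2 effects, 1 row was higher (4.42%) and 3 were lower (6.09%).

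Several other measures moved with the Saline + MG-REP group. The mitotic markers summed to between 335 and 974 TPM there, against 12.01 to 18.5 TPM in Saline + CTRL and 14.2 to 17.1 TPM in MIA + MG-REP. The sum of the 4 border macrophage markers was between 595 and 1183 TPM, against 329 to 435 TPM in Saline + CTRL. These markers did not all rise, since 1 of the 4 was at 0 TPM in each of Saline + MG-REP libraries 1 and 2. In the Saline + CTRL libraries none was at 0 TPM. The monocyte and neutrophil markers (3 of 4 in the table) reached 2860 TPM in 1 Saline + MG-REP library and were at 76.1 and 231 TPM in the others, against 420 to 505 TPM in Saline + CTRL. The endothelial markers were at 263 to 551 TPM against 704 to 1131 TPM in Saline + CTRL and 779 to 1022 TPM in MIA + MG-REP, and the microglial markers were at 24895 to 28374 TPM against 35292 to 51118 TPM. With each library left out in turn the Saline effect stayed between 2.57 and 3.30 for Ch25h, 1.498 and 1.73 for Plin2, 0.74 and 0.79 for Soat1 and -1.52 and -1.31 for Mylip. Xist was at 0.28, 0.29 and 124 TPM in Saline + CTRL and at 161 to 169 TPM in Saline + MG-REP, so the groups also differed in the share of Xist-expressing (female) libraries. On only the P60 libraries with Xist above 50 TPM, a choice made after the data were seen that leaves 1 control library per maternal treatment, assumed to vary like the other groups, the 4 genes were again called in Saline (3 higher and 1 lower). The difference between the effects was then called for Ch25h and Plin2 (2 rows), with adjusted p = 0.05004 for Mylip and 0.1638 for Soat1. The part of the marker genes in these results was not tested.

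**Figure D3:**
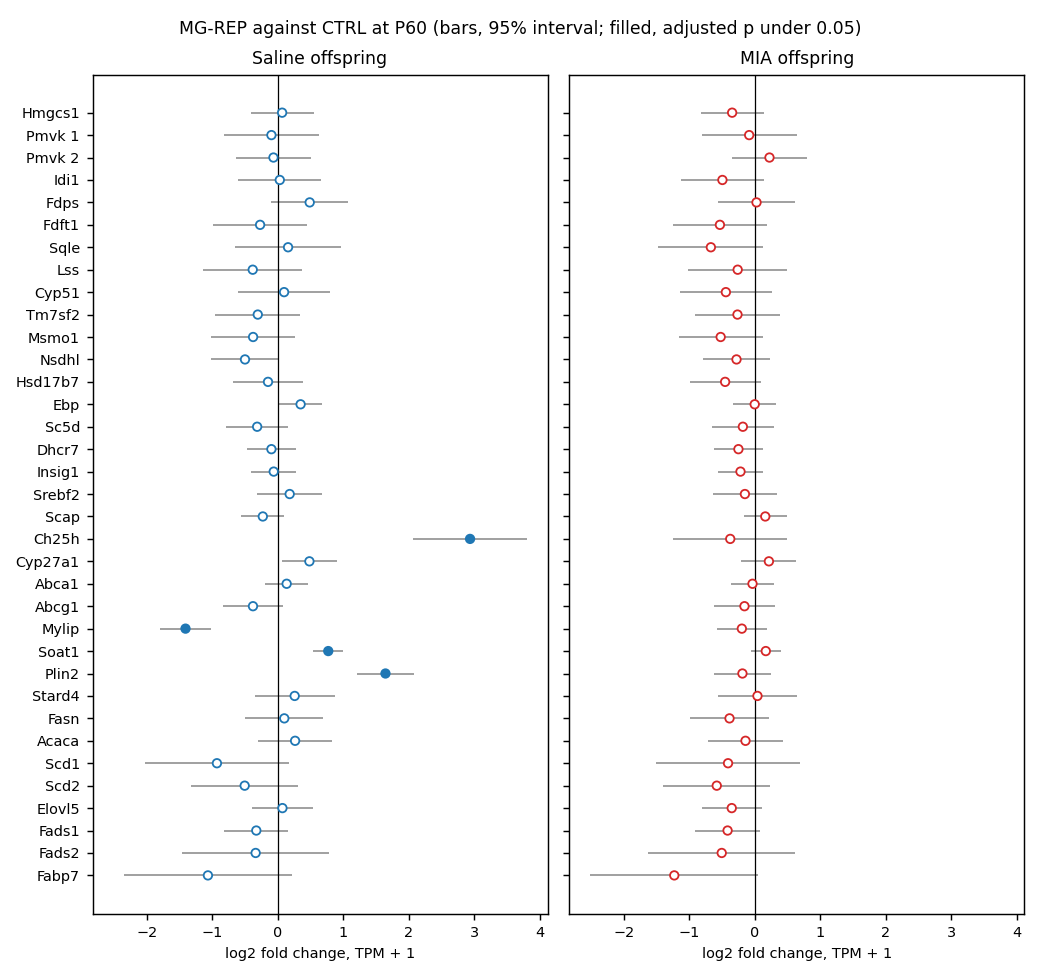
Log2 fold change of each row after repopulation at P60 in Saline and in MIA offspring, with 95% intervals, and filled points for an adjusted p under 0.05. In Saline only Ch25h, Plin2, Soat1 and Mylip are filled, and in MIA no point is.

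MIA was compared with Saline at each age, which asks whether maternal inflammation left a mark on these genes. At E17, P7, P20 and P60 on control chow, 0 of 35 rows were higher (0% of all transcripts) and 0 lower (0% of all) by limma. At an unadjusted p under 0.05 there were 0, 0, 0 and 1 rows of the set and 585, 335, 457 and 256 of all transcripts. The differences reached 0.93 for Fabp7 at E17 and 0.86 for Fabp7 at P60, and the 95% intervals had a median half-width of 0.57 log2 units and a largest of 1.28.

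At E17 Plin2 had the smallest p, with 512, 861 and 548 TPM in MIA against 783, 914 and 777 TPM in Saline (-0.40, 95% interval -0.83 to 0.03, adjusted p = 0.7537). Its groups overlapped through 1 MIA library. Ebp followed (-0.30, adjusted p = 0.7537). Of the 16 synthesis rows 15 lay above 0 at E17, with a median of 0.24 against 0.10 over all transcripts. Of all 14225 transcripts, 9687 lay above 0. With the other-cell marker covariate 11 of the 16 synthesis rows lay above 0. E17 MIA library 1 held 128 TPM of Sqle against 36.3 and 60.1 TPM in the other MIA libraries and 33.8 to 56.5 TPM in Saline, and its neuron markers were at 1329 TPM against 186 to 375 TPM in Saline. At P7 the smallest p-values were those of Soat1 (-0.17, 95% interval -0.40 to 0.05, adjusted p = 1) and Ebp (0.24, adjusted p = 1).

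At P20 they were those of Hsd17b7, a ketoreductase of the late chain (-0.44, 95% interval -0.98 to 0.10, adjusted p = 0.9999), and Ch25h (-0.58, 95% interval -1.45 to 0.29, adjusted p = 0.9999), and 14 of 16 synthesis rows lay below 0. Of all 14225 transcripts, 8585 lay below 0 at P20. With the other-cell marker covariate 7 of the 16 synthesis rows lay below 0 and 9 above. The marker sum was 3205 to 7323 TPM in Saline and 3021 to 4253 TPM in MIA at this age. At P60 Mylip was at 366, 444 and 438 TPM in MIA + CTRL, all below the 540, 498 and 612 TPM of Saline + CTRL (-0.40, 95% interval -0.79 to -0.02, limma adjusted p = 1), the 1 row of the set with an unadjusted p under 0.05. Hmgcs1, at 1.19, 0.93 and 1.44 TPM against 0.67, 0.62 and 0.61 TPM, differed by 0.41 (adjusted p = 1), on an estimated median of 13.6 reads over all libraries. At P60 15 of 16 synthesis rows lay above 0, where 8020 of all 14225 transcripts did. With the other-cell marker covariate 11 of the 16 lay above 0. For 25 rows at E17, 27 at P7, 28 at P20 and 25 at P60 the interval lay within 1 log2 unit of 0, and for the rest a change of 1 log2 unit lay within the interval.

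**Figure D4:**
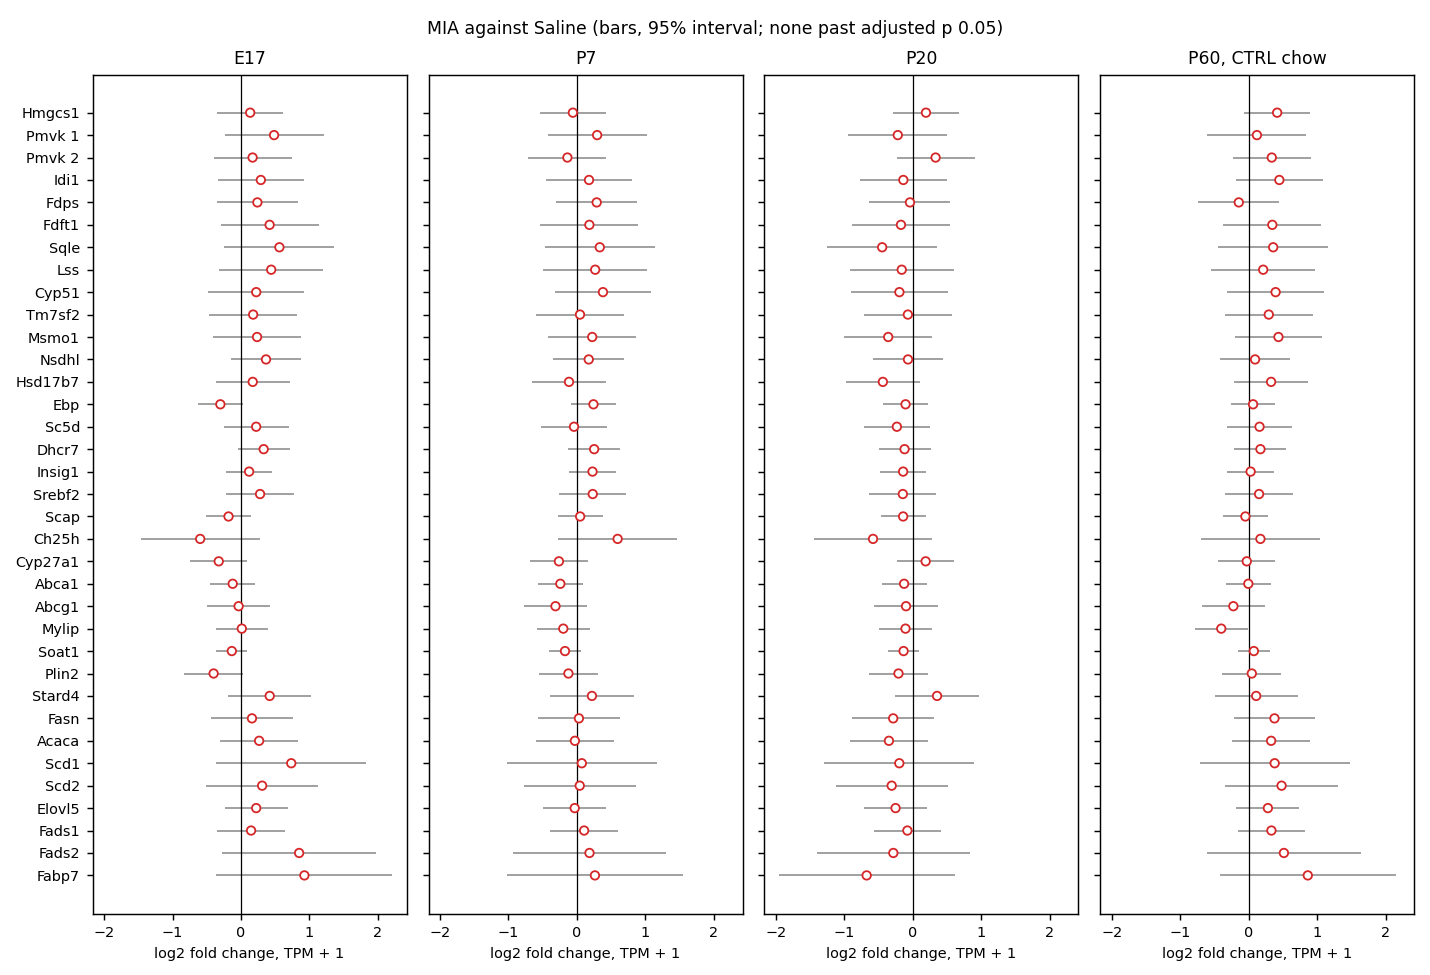
Log2 fold change of each row between MIA and Saline offspring at 4 ages, with 95% intervals. No row passed an adjusted p of 0.05, and the widest intervals are those of Fabp7, Fads2 and Scd1.

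Many of these genes are also strongly expressed by myelinating and other glia, so their co-variation with the markers of oligodendrocytes, astrocytes and neurons was measured within groups, a test added after the data were seen. The slope of log2(TPM + 1) per doubling of the summed markers, over 30 libraries with a term for each group, was above 0 and called for 24 of 35 rows, against 34.8% of all transcripts. It was below 0 and called for 6 rows, against 7.01% of all transcripts. The median slope was 0.37 in the set and 0.08 over all transcripts. Because TPM are shares of 1 library, a larger share of one cell's RNA lowers all others.

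The synthesis chain followed the markers nearly whole. Of its 16 rows 13 had a called positive slope, with a median over the 16 of 0.41. The slope was 0.63 ± 0.07 (SE) for Lss, which closes the ring of lanosterol, 0.61 ± 0.09 for Sqle, 0.60 ± 0.07 for Fdft1 and 0.55 ± 0.05 for Msmo1. Ebp was the exception, with a called slope of -0.17 ± 0.05. Among the fatty acid genes Fads2 had a slope of 1.04 ± 0.05, Scd1 0.98 ± 0.07 and Scd2 0.72 ± 0.06, and Fabp7 1.17 ± 0.07. A slope of 1 is that of a gene that moves in proportion to the marker sum.

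Several genes of storage, export and oxysterol synthesis had slopes below 0. The slope was -0.28 ± 0.06 for Plin2, -0.40 ± 0.15 for Ch25h, -0.21 ± 0.06 for Mylip, -0.15 ± 0.06 for Abca1 and -0.10 ± 0.04 for Soat1, all called, while that of Abcg1 was -0.17 ± 0.08 (adjusted p = 0.1099) and that of Cyp27a1 -0.09 ± 0.08 (adjusted p = 0.3865). Stard4, a target of SREBP2 and a carrier of cholesterol, had a called slope above 0, 0.29 ± 0.10, and Srebf2 itself of 0.37 ± 0.06. With the marker sum as a covariate, the calls from P7 to P20 in Saline went to 4 higher and 19 lower (8.57% and 31.4% of all transcripts), and the effects of repopulation in Saline to 4 higher and 2 lower (12.9% and 15.4% of all). The summed markers were 814 to 1237 TPM at P7 and 3205 to 7323 TPM at P20 in Saline, so age and marker level largely move together.

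**Figure D5:**
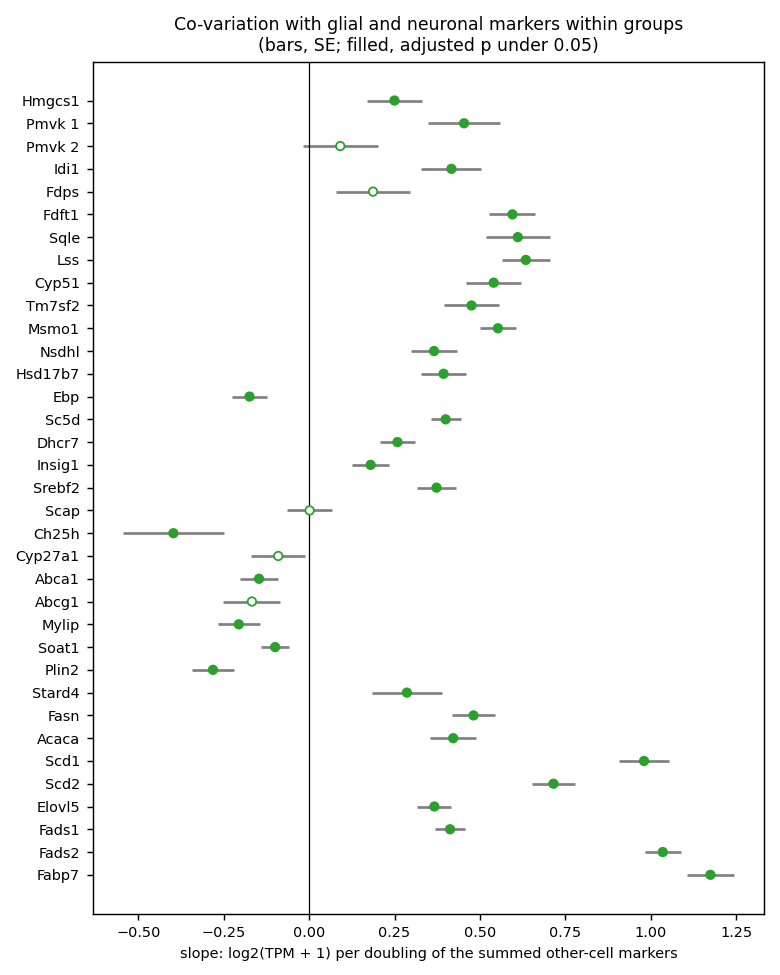
Slope of each row on the summed oligodendrocyte, astrocyte and neuron markers within groups, as log2(TPM + 1) per doubling of the sum, with bars for the SE and filled points for an adjusted p under 0.05. Fabp7, Fads2 and Scd1 have slopes near 1, most synthesis enzymes lie between 0.25 and 0.63, and Plin2, Ch25h and Mylip lie below 0.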

How the data were processed

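Poly(A) RNA of CD11B bead-isolated microglia was sequenced as non-stranded libraries, so a gene and its antisense partner cannot be told apart. The authors used Rsubread (mm10) and featureCounts and kept genes above a minimum CPM. The deposited values are TPM of 14225 transcripts, made by the authors with a formula the sources used here do not give. On these values, limma 3.58.1 in R 4.3.3 was fitted to log2(TPM + 1) of all 30 libraries and 10 groups, with a trend in the variance, and p-values were Benjamini-Hochberg adjusted over all transcripts (threshold 0.05). Fold changes on this scale understate changes of low genes. The code was tested on simulated data. Intervals are 95% and rest on the spread between libraries. Named genes were up to 3 rises and 3 falls per comparison among called rows with non-overlapping groups, the 2 smallest p-values where none was called, and a list of anchor genes. The members, lists and marker genes were chosen with earlier results of these data known. Alternatives were a pseudocount of 0.1, median-ratio scaling, a filter at a mean of 1 TPM, a replicate block, only the groups compared, marker and Xist covariates, no trend and leaving out each library. Columns with the authors' module of each transcript were not used. Reads were estimated from steps between low TPM times transcript length, searched over a preset range of step sizes. At the chosen steps 71.6% to 77.5% of low values lay within 0.2 of a whole read.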

Additional observations from a re-analysis of the deposited data

Results flagged for a closer look

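The effect of repopulation at P60 differed between MIA and Saline offspring for 4 genes, by limma's test of the difference adjusted over all transcripts. Of all transcripts 4.42% were called higher and 6.09% lower in this test. The difference for Soat1 was not called under median-ratio scaling, and the groups also differed in the share of Xist-expressing libraries. On the log2(TPM + 1) scale the MIA effect minus the Saline effect was -3.31 for Ch25h, 1.21 for Mylip, -0.60 for Soat1 and -1.83 for Plin2, and each had its called change in Saline + MG-REP. The mitotic markers, which were high in Saline + MG-REP and not in MIA + MG-REP, moved with this pattern, and their part was not tested.

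Soat1 was lower in all 3 MIA libraries than in all 3 Saline libraries at P7 and higher in all 3 at P60 on control chow. The difference between these effects was 0.25 (limma unadjusted p = 0.1263, adjusted p = 1).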

How the results depend on the processing

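The main counts of called rows were recomputed under each alternative, and those of MIA against Saline at every age and of repopulation in MIA stayed at 0 throughout, with each library left out too. For repopulation in Saline the count was 4, and 4 to 5 without single libraries, and for the difference between the effects 4, 4 to 4 without single libraries and 2 on only the Xist-expressing P60 libraries, a setting added after the data were seen. With the other-cell marker covariate the counts between ages in Saline were 5 (main 2) from E17 to P7, 23 (main 8) from P7 to P20, 9 (main 1) from P20 to P60 and 24 (main 15) from E17 to P60, where 5.16% and 5.04%, 8.57% and 31.4%, 11% and 6.03%, and 13.6% and 34.1% of all transcripts were called higher and lower. In MIA they were 6 (main 1), 28 (main 8) and 8 (main 1) for the first 3 intervals, beside 4.15% and 5.83%, 10.5% and 37.3%, and 10.2% and 5.22% of all transcripts. On only the Xist-expressing P60 libraries the count from E17 to P60 in Saline was 9. With median-ratio scaling they were 1 from E17 to P7 in Saline and 2 from P20 to P60 in MIA. In fits on the compared groups alone they were 4 from E17 to P7 and 0 from P20 to P60 in Saline, and 0 for both in MIA. Without single libraries the counts ranged from 0 to 2, 6 to 10, 1 to 2 and 11 to 17 for these 4 comparisons in Saline, and from 0 to 2, 6 to 7 and 0 to 2 for the 3 in MIA. From P20 to P60 in MIA the count was 0 without P20 MIA library 3 or P60 MIA + CTRL library 2 and 2 without P60 MIA + CTRL library 1, and from E17 to P7 in MIA leaving out E17 MIA library 3 gave 0 and leaving out library 2 gave 2. From P20 to P60 in Saline it was 2 without P20 Saline library 1 or 3. From E17 to P60 in Saline the differences of Fads2 and Msmo1 reversed to -0.37 and -0.20 with the covariate, and the calls of Fads1, Ebp and Abcg1 were lost. The cause of these changes was not tested.

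Replicate numbers correlated above 0.1 in every pair only at P20 (0.238, 0.104 and 0.132), and the labels tie no numbers to a litter or batch. Between Saline and MIA at E17 the values were 0.404, 0.656 and 0. Between the P60 control-chow groups they were 0.203, -0.166 and 0.634. With the replicate block the counts were 4 from P20 to P60 in Saline and 2 from E17 to P7 in MIA, and no other count moved by over 1.5 times. Low rows such as Fdps, with an estimated median of 4.7 reads, limit what depth can show.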
